A study of Mus musculus with 6 samples.

Results

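The genes described here are Fgf4, the FGF receptor genes Fgfr1, Fgfr2, Fgfr3, Fgfr4 and Fgfrl1, the docking protein genes Frs2 and Frs3, and the genes of the FGF partners Fgfbp1 and Flrt3. They were taken by gene symbol from the deposited count files, 10 of 23238 symbols, and all 10 were present. One line was a mouse embryonic stem cell line that stably carries EWS-OCT4A fused to GFP, named EWS-OCT-4, and the control line, named EGFP, stably carries EGFP. Both are lines of 129/Ola embryonic stem cells, which the labels name Niwa, were grown with LIF, and had their endogenous OCT-4 lowered with 1 µg/ml of doxycycline. Each line gave 3 libraries, and all 6 libraries had doxycycline. Each line is a single stable line, and neither the promoter that drives the insert nor its clonality is given in the sources used here, so the insert and other differences between the lines cannot be told apart.

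Fibroblast growth factors are secreted ligands that bind, together with heparan sulfate, to receptor tyrosine kinases encoded by Fgfr1 to Fgfr4. The docking proteins FRS2 and FRS3 are then phosphorylated at the receptor and recruit GRB2, SOS, GAB1 and SHP2, which pass the signal to RAS and ERK. In the mouse blastocyst FGF4 is made by the pluripotent epiblast. Fgfr2 is known as a receptor of trophectoderm and primitive endoderm, the cells around the epiblast, whereas Fgfr1 is used more widely, the epiblast included. FGF4 sustains trophoblast stem cells in culture, and in embryonic stem cells it acts back on the cells that make it.

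Sequences next to the gene with the largest change are shown first, because Fgf4 is a textbook target of OCT-4 acting together with SOX2. The 3′ untranslated region of Fgf4, at chr7:144864388-144864417 on the plus strand of GRCm38 (the assembly of mm10), holds a SOX site followed by an octamer-like site. In the line below, read from the GENCODE M21 transcripts, the capitals mark these sites.
Fgf4 3′ untranslated region: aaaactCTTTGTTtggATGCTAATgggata
The pair was searched on both strands as CTTTGTT, 3 bases of any kind and ATGCNAAT, letters taken from what is known of Fgf4 itself. It occurred in the longest annotated 3′ untranslated region of 1 gene, Fgf4, of 20937 genes with such a region (0.00478%). A match of letters is a description and shows no binding.

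The promoter windows of the 3 genes of this family with the largest changes follow, from RefSeq (GRCm38.p6), 250 bases before to 50 bases after the annotated start. Of the 10 genes, 9 had an entry in the table. Capitals mark matches on either strand to 4 motifs. The octamer motif was searched as ATGCAAAT. The short motif of SOX factors was searched as ACAAAG. The motif of the TATA element was searched as TATAAA, and a GC box as the letters GGGCGG. None of these motifs overlapped in the windows printed.
Fgf4 promoter, chr7:144861136-144861435, plus strand: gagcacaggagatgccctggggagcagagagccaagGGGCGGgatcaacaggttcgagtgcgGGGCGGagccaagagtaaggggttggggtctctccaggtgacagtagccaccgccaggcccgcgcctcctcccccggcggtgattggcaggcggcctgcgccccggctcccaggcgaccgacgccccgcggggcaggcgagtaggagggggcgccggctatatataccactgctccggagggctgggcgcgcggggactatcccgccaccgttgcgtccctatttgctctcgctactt
Fgfr2 promoter, chr7:130266759-130267058, minus strand: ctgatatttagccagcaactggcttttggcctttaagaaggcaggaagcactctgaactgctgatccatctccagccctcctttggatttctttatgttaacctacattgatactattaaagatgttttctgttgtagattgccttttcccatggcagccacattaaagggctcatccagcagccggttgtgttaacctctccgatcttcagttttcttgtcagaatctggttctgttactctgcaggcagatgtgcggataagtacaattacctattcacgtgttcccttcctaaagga
Fgfbp1 promoter, chr5:43981750-43982049, minus strand: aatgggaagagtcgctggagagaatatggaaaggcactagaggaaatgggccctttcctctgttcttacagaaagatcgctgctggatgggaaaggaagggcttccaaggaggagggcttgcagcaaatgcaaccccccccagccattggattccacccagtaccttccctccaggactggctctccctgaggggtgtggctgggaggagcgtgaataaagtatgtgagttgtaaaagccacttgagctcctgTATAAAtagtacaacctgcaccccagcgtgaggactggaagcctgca
The Fgf4 window held 2 GC boxes and a GC content of 69.7%, and the Fgfr2 window none of these letters at 43.7% GC. The Fgfbp1 window, at 53.3% GC, held 1 TATA match, which began 3 bases after the RefSeq start. In GENCODE M21 the 5′ end of Fgfbp1 is at 43981779, and the match lies before it. The median GC content over all 32851 windows was 52.7%. Only exact letters were counted, so the stretch tatatata in the Fgf4 line is not a match. Of all windows, 35.7% held a GC box, 13.6% a TATA match, 18.7% a SOX match and 1.74% an octamer. Among the windows of the 9 genes no octamer was found, and the SOX letters occurred in that of Fgfrl1 alone.

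The libraries held 10978025 to 12281444 counts in the EWS-OCT-4 line and 13239383 to 14935887 in the EGFP line. Levels below are CPM (counts scaled to a common library size with TMM factors), with the mean ± SD over 3 libraries. Each log2 fold change is of EWS-OCT-4 over EGFP and stands with its standard error (SE). The kit reads transcript 3′ ends, so counts were not divided by transcript length. Pou5f1, the gene for OCT-4, had 18, 21 and 36 counts in the EWS-OCT-4 libraries and 5, 13 and 10 in the EGFP libraries. Its difference of 1.76 (SE 0.51) gave an adjusted p of 0.0108 in edgeR, or 0.0542 without EWS-OCT-4 replicate 3. Whether its tags come from the fusion is not given, so the gene cannot check the labels. The labelled cell type was checked by marker lists. The summed level of 10 embryonic stem cell markers was 5521 to 6077 CPM in the EWS-OCT-4 libraries and 411 to 527 CPM in the EGFP libraries, with none at 0 in any library. That of 14 trophoblast markers was 258 to 287 CPM in the EWS-OCT-4 libraries, with 3 to 5 of them at 0, and 5298 to 5849 CPM in the EGFP libraries, with none at 0. All 10 stem cell markers were higher and all 14 trophoblast markers lower in the EWS-OCT-4 line. The stem cell genes Sox2 and Nanog stood at 1334 ± 29.99 and 548 ± 117 CPM in the EWS-OCT-4 line and at 7.02 ± 4.84 and 23.5 ± 13.1 CPM in the EGFP line. The trophoblast genes Cdx2 and Gata3 stood at 0.266 ± 0.0762 and 0.453 ± 0.254 CPM in the EWS-OCT-4 line and at 28.0 ± 8.19 and 332 ± 26.7 CPM in the EGFP line. Neither pair was at 0 in any library. The label embryonic stem cell thus went against the markers in the EGFP libraries. The 10 primitive endoderm markers summed to 5.54 to 9.04 CPM in the EWS-OCT-4 libraries and 105 to 125 CPM in the EGFP libraries. Of 4 tested, 1 was higher and 3 were lower in the EWS-OCT-4 line. Most of the EGFP sum came from Dab2 (72.3 to 83.6 CPM) and Gata6 (26.1 to 36.7 CPM). Gata4 went the other way, at 1.85 to 2.27 CPM in EWS-OCT-4 and at most 0.298 CPM in EGFP. So did Sox7, at least 0.756 CPM in EWS-OCT-4 and at most 0.210 CPM in EGFP. The sum therefore does not stand for the list as a whole. The 9 fibroblast markers summed to 25.4 to 33.9 CPM in the EWS-OCT-4 libraries and 14.96 to 17.7 CPM in the EGFP libraries, with 2 higher and 1 lower of 6 tested. These lists differ between the same lines that every result below compares, and their part in those results was not tested.

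All 10 genes passed the filter on low counts. By edgeR's quasi-likelihood test 5 rose, 4 fell and 1 missed an adjusted p of 0.05. Over all 13467 genes tested, 67.4% passed, 33.3% higher and 34.1% lower in the EWS-OCT-4 line, so a call by itself sets none of these genes apart. In 8 of the 10 the libraries of the lines did not overlap, beside 72.7% of all tested genes. The sizes of the changes differed widely. By absolute log2 fold change, Fgf4 ranked 117 of 13467, Fgfr2 303 and Fgfbp1 491, while Fgfr1 ranked 9059. Whether libraries of 1 line were separate cultures is not stated, and p-values therefore measure a spread between libraries that may be technical.

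**Figure D1:**
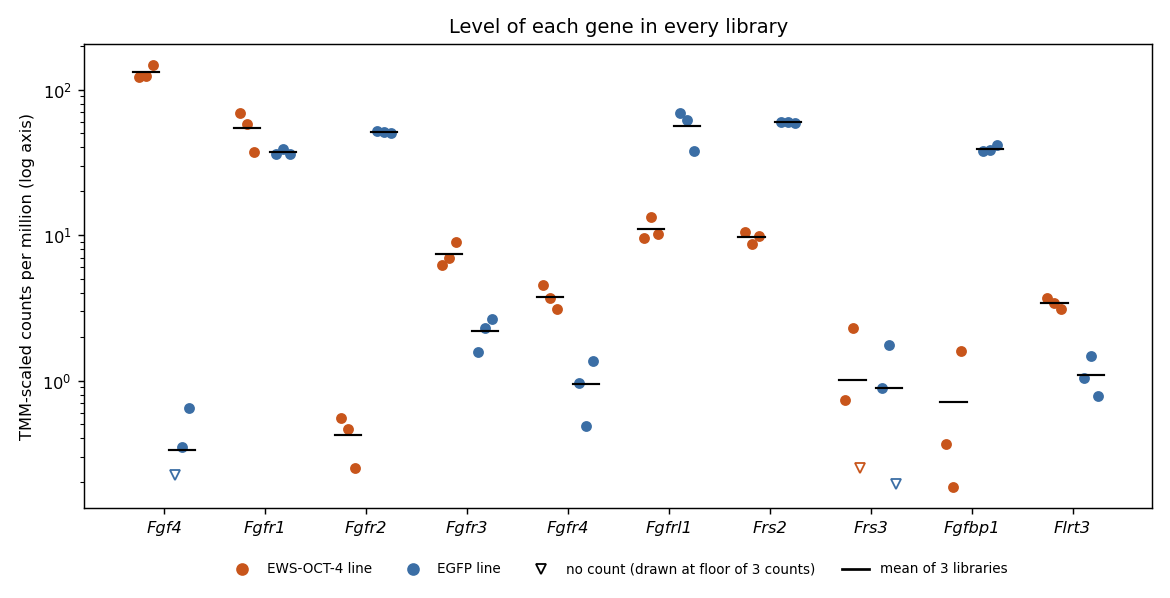
TMM-scaled CPM (log axis) of the 10 genes in each library, with EWS-OCT-4 libraries in orange to the left and EGFP libraries in blue to the right; bars are means of 3 libraries and open triangles mark libraries with no count, drawn at a floor of 3 counts. Fgf4 stood at 122 to 147 CPM in the EWS-OCT-4 line and at most 0.650 CPM in the EGFP line, and Fgfr2 at 0.252 to 0.553 CPM in the EWS-OCT-4 line and 50.6 to 51.9 CPM in the EGFP line.

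The ligand rose most. Fgf4 had 1319, 1346 and 1753 counts in the EWS-OCT-4 libraries and 0, 5 and 10 counts in the EGFP libraries. This was 122, 124 and 147 CPM in the EWS-OCT-4 libraries and 0, 0.351 and 0.650 CPM in the EGFP libraries. Every EWS-OCT-4 library was far above every EGFP library, and EGFP replicate 1 had no count, which at that depth allows up to 0.224 CPM. The log2 fold change was 8.52 (SE 0.40, adjusted p = 8.8e-08 by edgeR). It was 9.42 without EGFP replicate 3, which held most of the EGFP counts, and 7.98 without EGFP replicate 1. In bulk RNA, fewer cells that express a gene and less RNA per cell cannot be told apart, here and in the results that follow. In GENCODE M21 Fgf4 spans 144847367 to 144865243 of chromosome 7 (plus strand) and is protein-coding. Its RefSeq promoter window shown above lies inside this span, so the annotations place its start differently.

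Fgf4 made up most FGF ligand tags in the EWS-OCT-4 line. The ligand list was 22 FGF genes with Fgf4 included, and it also holds intracellular relatives such as Fgf11. Over this list the share of Fgf4 was 85.0% (Wilson 95% interval 83.2 to 86.7), 89.9% (88.3 to 91.3) and 89.5% (88.1 to 90.8) in EWS-OCT-4 replicates 1 to 3. In EGFP replicates 1 to 3 it was 0% of 69 counts (0 to 5.27), 6.17% of 81 counts (2.67 to 13.6) and 11.6% of 86 counts (6.44 to 20.1). The EGFP libraries thus held few ligand tags of any kind. These intervals cover counting error only.

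Of the 21 other ligand genes, 5 were tested. Of these, 3 rose, 1 fell and 1 was not called, beside 67.4% called among all tested genes. The median log2 fold change was 2.47, beside -0.0042 over all tested genes. Fgf15 and Fgf11 passed the filter on low counts only through the EWS-OCT-4 libraries, and Fgf9 only through the EGFP libraries. Passing through 1 line alone favours a difference in that direction, so these calls and the median are not independent of the filter. The list was 6 genes without a count in any library, 10 with at most 32 counts in all that were not tested, and the tested genes. Fgf15, which lies 3′ of Fgf4 on the same strand (chromosome 7, 144896531 to 144900953), had 63, 47 and 30 counts in the EWS-OCT-4 libraries and none in the EGFP libraries, at least 20.1-fold higher with a floor of 3 counts per EGFP library. Fgf3, on the other side of Fgf4 (144838083 to 144844436), had 5, 9 and 18 counts in the EWS-OCT-4 libraries and none in the EGFP libraries, at least 4.46-fold higher by the same floor, and was not tested. The 3 neighbours of this cluster therefore had counts in every EWS-OCT-4 library, while the EGFP libraries held 15 counts in all, each of Fgf4. Fgf1, a ligand for all FGF receptors, rose to 8.70 ± 2.56 CPM in the EWS-OCT-4 line, against 1.55 ± 0.925 CPM in the EGFP line (adjusted p = 0.000768 by edgeR). Fgf11, an intracellular relative that is not secreted, rose to 1.21 ± 0.335 CPM in the EWS-OCT-4 line, against 0.208 ± 0.0667 CPM in the EGFP line (adjusted p = 0.00372 by edgeR). Fgf9, a secreted ligand, fell, with 1, 0 and 2 counts in the EWS-OCT-4 libraries and 11, 44 and 18 in the EGFP libraries, a depth-scaled EGFP to EWS-OCT-4 ratio of 18.98 (exact 95% interval 6.24 to 94.2). Its log2 fold change was -4.11, -3.37 without EGFP replicate 2 and -4.93 without EWS-OCT-4 replicate 3.

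Among the receptors, Fgfr2 fell. It had 6, 5 and 3 counts in the EWS-OCT-4 libraries and 696, 726 and 778 counts in the EGFP libraries. The levels were 0.553, 0.462 and 0.252 CPM in the EWS-OCT-4 libraries and 51.9, 50.9 and 50.6 CPM in the EGFP libraries. The lines were far apart, and the EGFP libraries were close to each other. This was a log2 fold change of -6.90 (SE 0.25, adjusted p = 2.4e-08 by edgeR), a level 119.7-fold lower in the EWS-OCT-4 line. Leaving out any single library moved it between -7.14 and -6.62. In GENCODE M21 the annotated span of Fgfr2 on chromosome 7 (130162451 to 133123350, minus strand) covers 36 other genes on its strand and 33 on the opposite strand. The RefSeq promoter window shown above lies inside this span. None of these genes overlapped the last exon of a coding transcript of Fgfr2.

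Fgfr1, the receptor used most widely in early embryos, was higher in the EWS-OCT-4 line by a small margin that depends on single libraries. It had 68.4, 57.9 and 37.4 CPM in the EWS-OCT-4 libraries and 36.2, 39.1 and 36.2 CPM in the EGFP libraries. EWS-OCT-4 replicate 3 lay within the range of the EGFP libraries, and the other 2 lay above it. Its log2 fold change was 0.55 (SE 0.21, adjusted p = 0.0362 by edgeR). With 1 library left out the call was lost 5 times in 6, without EWS-OCT-4 replicate 1 (log2 fold change 0.36, adjusted p = 0.161) or replicate 2 (adjusted p = 0.0937) and without EGFP replicate 1, 2 or 3 (adjusted p = 0.110, 0.0778 and 0.0901). Within pairs of the same number, on log2(CPM + 1), the difference was 0.90 for number 1, 0.55 for number 2 and 0.04 for number 3.

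Fgfr3 and Fgfr4, receptors with a narrower use in embryonic tissues, rose. Fgfr3 had 6.27, 6.93 and 8.98 CPM in the EWS-OCT-4 libraries and 1.57, 2.31 and 2.67 CPM in the EGFP libraries, a log2 fold change of 1.75 (SE 0.33, adjusted p = 0.000847 by edgeR). Fgfr4 had 4.52, 3.69 and 3.11 CPM in the EWS-OCT-4 libraries and 0.969, 0.491 and 1.37 CPM in the EGFP libraries, a log2 fold change of 1.98 (SE 0.46, adjusted p = 0.00314 by edgeR). In neither gene did the lines overlap. The Fgfr4 values rest on 126 counts in the EWS-OCT-4 line and 41 in the EGFP line.

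Fgfrl1, which encodes a receptor that binds FGF and heparin but lacks the tyrosine kinase domain, fell. Its level was 9.50, 13.3 and 10.2 CPM in the EWS-OCT-4 libraries and 68.9, 61.4 and 37.6 CPM in the EGFP libraries. The lines did not overlap, and EGFP replicate 3 was the lowest of its line. Its log2 fold change was -2.34 (SE 0.25, adjusted p = 1.8e-05 by edgeR). Relative to the summed tags of the 4 kinase receptors, the libraries held 0.119, 0.193 and 0.206 Fgfrl1 tags per receptor tag in the EWS-OCT-4 line and 0.760, 0.662 and 0.414 in the EGFP line.

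**Figure D2:**
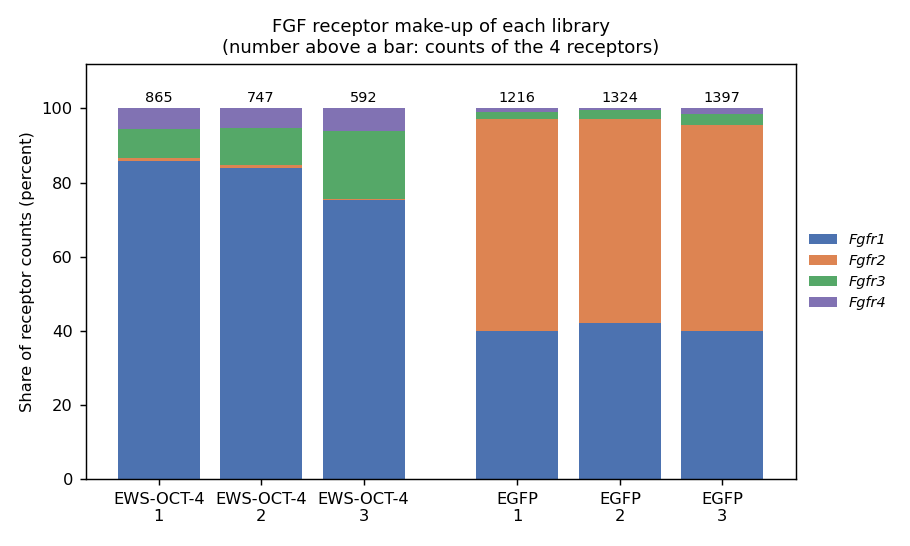
Share of Fgfr1, Fgfr2, Fgfr3 and Fgfr4 in the summed counts of the 4 receptors (percent, y axis) in each library, EWS-OCT-4 libraries left and EGFP libraries right, with the summed counts above each bar. Fgfr1 took 75.2 to 85.8% in the EWS-OCT-4 libraries, while Fgfr2 took 54.8 to 57.2% in the EGFP libraries.

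Receptor composition differed between the lines. It was measured as each gene's share of the tags of the 4 kinase receptors, a ratio within a library that does not depend on depth or scaling. Shares compare genes in tags at transcript 3′ ends, with no correction for how well each 3′ end is captured. The same tags do not separate the splice forms of Fgfr1, Fgfr2 and Fgfr3, known to differ in the ligands they bind. Fgfr2 made up 0.694% (Wilson 95% interval 0.318 to 1.51), 0.669% (0.286 to 1.56) and 0.507% (0.172 to 1.48) in EWS-OCT-4 replicates 1 to 3. In EGFP replicates 1 to 3 it made up 57.2% (54.4 to 59.99), 54.8% (52.1 to 57.5) and 55.7% (53.1 to 58.3). It was thus the most tagged of the 4 kinase receptors in the EGFP line and the least tagged in the EWS-OCT-4 line.

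Fgfr1 took 85.8% (Wilson 95% interval 83.3 to 87.9), 83.9% (81.1 to 86.4) and 75.2% (71.5 to 78.5) in the EWS-OCT-4 libraries, and 40.0% (37.2 to 42.7), 42.1% (39.5 to 44.8) and 39.9% (37.3 to 42.5) in the EGFP libraries. Fgfr3 took 7.86% (6.25 to 9.85), 10.04% (8.09 to 12.4) and 18.1% (15.2 to 21.4) in the EWS-OCT-4 libraries, and 1.73% (1.13 to 2.63), 2.49% (1.78 to 3.48) and 2.93% (2.17 to 3.96) in the EGFP libraries. EWS-OCT-4 replicate 3 had the highest Fgfr3 share and the lowest Fgfr1 share of its line. Fgfr4 took 5.66% (4.31 to 7.41), 5.35% (3.96 to 7.21) and 6.25% (4.57 to 8.50) in the EWS-OCT-4 libraries, and 1.07% (0.626 to 1.82), 0.529% (0.256 to 1.09) and 1.503% (0.985 to 2.29) in the EGFP libraries. In the EWS-OCT-4 line the order of receptors by tags was Fgfr1, Fgfr3, Fgfr4 and Fgfr2 in each library, and the intervals of Fgfr3 and Fgfr4 overlapped in EWS-OCT-4 replicate 1. In the EGFP line it was Fgfr2, Fgfr1, Fgfr3 and Fgfr4 in each library, and the intervals of Fgfr3 and Fgfr4 overlapped in EGFP replicates 1 and 3.

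The mean share of Fgfr2 differed by -55.3 percentage points, that of Fgfr1 by 41.0, that of Fgfr3 by 9.61 and that of Fgfr4 by 4.72. The 4 shares of a library add up to its whole, so a fall of the Fgfr2 share raises the others. These differences are therefore not independent. By level, the log2 fold changes of Fgfr1, Fgfr3 and Fgfr4 were 0.55, 1.75 and 1.98, so Fgfr1 rose least of these. With Fgfrl1 added to the summed tags, the difference of Fgfr2 was -34.4 percentage points and that of Fgfr1 44.4, with exact permutation p = 0.10 for each. For all 4 shares the libraries of the lines did not overlap. Each had p = 0.10 by the 2-sided exact permutation test, the smallest that 3 against 3 libraries allow, and 0.10 adjusted over the 4 shares. The design therefore cannot reach 0.05 in this test. With 0.5 added to each count, Fgfr1 had 114, 114 and 127 tags per tag of Fgfr2 in EWS-OCT-4 replicates 1 to 3, and 0.698, 0.769 and 0.716 in EGFP replicates 1 to 3. The log2 ratio averaged 6.89 ± 0.09 in the EWS-OCT-4 line and -0.46 ± 0.07 in the EGFP line (SD, n = 3 each), a difference of 7.35 with exact permutation p = 0.10.

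The receptor total was lower in the EWS-OCT-4 line. The summed level of Fgfr1 to Fgfr4 was 79.8, 69.0 and 49.7 CPM in the EWS-OCT-4 libraries and 90.7, 92.9 and 90.9 CPM in the EGFP libraries. The lines did not overlap, and the EWS-OCT-4 libraries were lower and more spread. The mean difference was -25.3 CPM (2-sided exact permutation p = 0.10, the smallest possible).

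Of the docking protein genes, Frs2, which encodes the main docking protein of activated FGF receptors, fell, and Frs3 was not called. Frs2 had 10.4, 8.68 and 9.91 CPM in the EWS-OCT-4 libraries and 59.6, 60.1 and 58.5 CPM in the EGFP libraries, and the spread within either line was small beside the gap. The log2 fold change was -2.62 (SE 0.15, adjusted p = 3.2e-07 by edgeR). Frs3, its relative, had 8, 25 and 0 counts in the EWS-OCT-4 libraries and 12, 25 and 0 counts in the EGFP libraries. The lines overlapped and the log2 fold change of 0.20 (SE 1.16, adjusted p = 0.891 by edgeR) did not pass the test, with a sign that depended on the libraries (-1.26 without EWS-OCT-4 replicate 2, -0.40 without EGFP replicate 3 and 1.197 without EGFP replicate 2). Both libraries numbered 3 lacked Frs3 tags, which at their depths allows up to 0.252 CPM in EWS-OCT-4 replicate 3 and 0.195 CPM in EGFP replicate 3. With numbers 1 and 2 only, the log2 fold change was 0.21 (SE 0.64, adjusted p = 0.773 by edgeR). Frs3os, annotated on the opposite strand inside Frs3, had 13, 10 and 15 counts in the EWS-OCT-4 libraries and none in the EGFP libraries.

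The extracellular partners moved in opposite directions. Fgfbp1, a secreted carrier that releases FGF from the matrix, fell. It had 0.369, 0.185 and 1.60 CPM in the EWS-OCT-4 libraries and 37.5, 38.5 and 41.3 CPM in the EGFP libraries, with 19 of the 25 EWS-OCT-4 counts in replicate 3. Its log2 fold change was -5.71 (SE 0.44, adjusted p = 2.0e-06 by edgeR), -7.09 without that library and -5.27 without EWS-OCT-4 replicate 2. Flrt3, a transmembrane protein known from Xenopus to bind FGF receptors and promote their signal, rose. Its level was 3.69, 3.42 and 3.11 CPM in the EWS-OCT-4 libraries and 1.04, 1.47 and 0.780 CPM in the EGFP libraries, with no overlap. The log2 fold change was 1.62 (SE 0.41, adjusted p = 0.00505 by edgeR). Flrt3 lies inside Macrod2, annotated on the opposite strand, which had 56, 66 and 73 counts in the EWS-OCT-4 libraries and 20, 15 and 13 in the EGFP libraries. The 2 genes have separate counts, but the use of strand in the counting is not given. To which of them reads from their overlap were assigned is therefore not known.

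**Figure D3:**
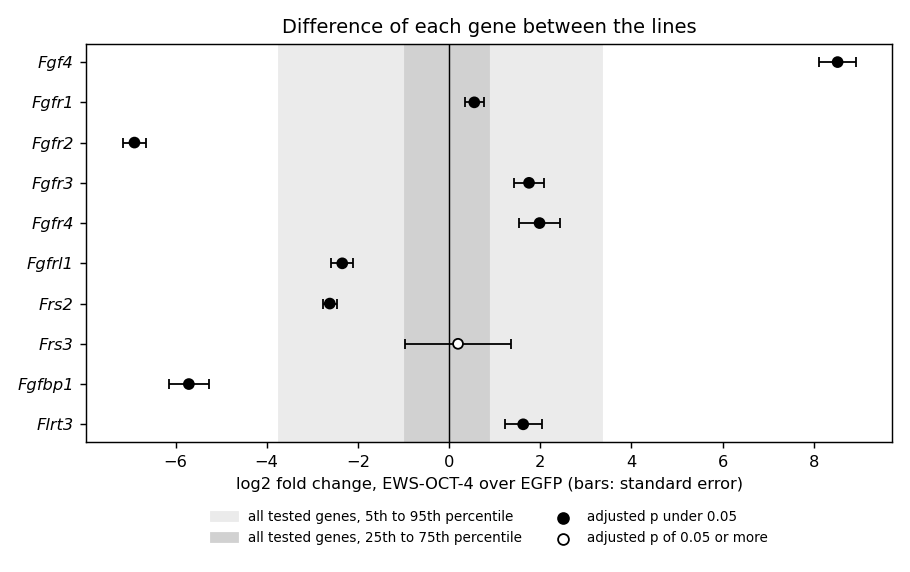
Log2 fold change of each gene, EWS-OCT-4 over EGFP (x axis), with its standard error, filled where adjusted p was under 0.05 by edgeR; grey bands span the 25th to 75th and the 5th to 95th percentile of all 13467 tested genes. Fgf4 lies above the wider band, which runs from -3.74 to 3.35, Fgfr2 and Fgfbp1 lie below it, and the other 7 genes lie within it.

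Co-receptors, carriers and enzymes of heparan sulfate act with FGF receptors at the cell surface. Of 24 co-receptor and heparan sulfate genes, 19 were tested, with 5 higher, 8 lower and 6 not passing the test (median log2 fold change -0.31). The share called, 68.4%, was near the 67.4% of all tested genes. Of the syndecans, cell surface carriers of heparan sulfate, 3 fell. Sdc4 fell to 50.03 ± 5.61 CPM in the EWS-OCT-4 line, against 560 ± 43.5 CPM in the EGFP line, Sdc1 to 16.2 ± 3.42 CPM in EWS-OCT-4, against 81.6 ± 22.0 CPM in EGFP, and Sdc3 to 0.520 ± 0.528 CPM in EWS-OCT-4, against 6.65 ± 1.34 CPM in EGFP. The log2 fold change of Sdc3 was -3.68, -4.85 without EWS-OCT-4 replicate 1 and -3.15 without EWS-OCT-4 replicate 3. Sulf1, an extracellular enzyme that removes sulfate from heparan sulfate, rose to 16.3 ± 4.47 CPM in the EWS-OCT-4 line, against 0.591 ± 0.217 CPM in the EGFP line. Of 6 further receptor partners at the membrane, 4 were tested, with 2 higher, 1 lower and 1 not passing (median 0.34), again near the 67.4% of all tested genes. Ncam1, an adhesion molecule that binds FGF receptors, rose to 95.7 ± 13.6 CPM in EWS-OCT-4, against 38.6 ± 3.44 CPM in EGFP. Fgfbp3, a relative of Fgfbp1, rose to 4.92 ± 1.79 CPM in EWS-OCT-4, against 0.839 ± 0.0573 CPM in EGFP, and Flrt1, a relative of Flrt3, fell to 1.82 ± 0.794 CPM in EWS-OCT-4, against 5.06 ± 0.0624 CPM in EGFP.

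The adaptors that act after FRS proteins were mostly lower. Of 14 listed, 13 were tested, with 1 higher, 10 lower and 2 not passing the test, beside 33.3% higher and 34.1% lower among all tested genes (median log2 fold change -0.80). Gab2, a scaffold related to GAB1, fell to 0.554 ± 0.423 CPM in the EWS-OCT-4 line, against 186 ± 10.9 CPM in the EGFP line. Its log2 fold change was -8.34 (SE 0.32, adjusted p = 3.6e-08 by edgeR). It was -8.94 without EWS-OCT-4 replicate 3 and -7.86 without EWS-OCT-4 replicate 2. Nck2, an adaptor to the actin cytoskeleton, fell to 6.10 ± 2.48 CPM in EWS-OCT-4, against 41.7 ± 5.22 CPM in EGFP, and Sos2, a RAS activator, to 5.79 ± 2.05 CPM in EWS-OCT-4, against 17.9 ± 0.554 CPM in EGFP. Shc1, an adaptor of many tyrosine kinases, was the one that rose, to 61.6 ± 4.88 CPM in EWS-OCT-4, against 24.7 ± 3.41 CPM in EGFP.

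Of 15 listed genes from RAS to ERK, 14 were tested, with 3 higher, 4 lower and 7 not passing the test (median log2 fold change -0.14). This was 50% called, beside 67.4% of all tested genes. The RAF kinase gene Braf fell to 38.6 ± 15.01 CPM in the EWS-OCT-4 line, against 90.5 ± 6.07 CPM in the EGFP line, and Rasa1, which switches RAS off, to 80.8 ± 25.7 CPM in EWS-OCT-4, against 173 ± 2.65 CPM in EGFP. Nf1, another gene whose product switches RAS off, rose to 10.7 ± 1.10 CPM in EWS-OCT-4, against 5.06 ± 0.990 CPM in EGFP.

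Known transcriptional readouts of FGF-ERK signalling were higher. Of 13 listed, 12 were tested, with 11 higher and 1, Egr1, not passing the test by edgeR, beside 33.3% higher among all tested genes (median log2 fold change 3.29). Of the ETS transcription factors, Etv4, Etv1 and Etv5 rose to 59.99 ± 9.35, 18.02 ± 2.30 and 230 ± 52.3 CPM in the EWS-OCT-4 line, against 0.326 ± 0.0462, 0.0931 ± 0.0812 and 2.497 ± 1.14 CPM in the EGFP line. Spry4, a feedback inhibitor, rose to 22.2 ± 7.24 CPM in EWS-OCT-4, against 0.656 ± 0.300 CPM in EGFP. This list and these directions were known from earlier results of the same data and are not independent of them.

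**Figure D4:**
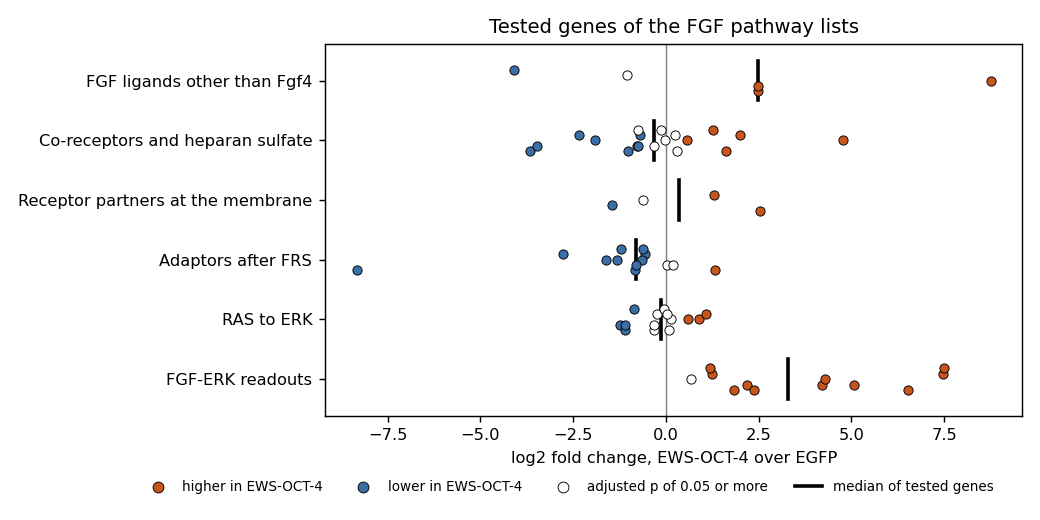
Log2 fold change, EWS-OCT-4 over EGFP (x axis), of each tested gene in 6 lists of the FGF pathway (rows), orange where higher and blue where lower at adjusted p under 0.05 by edgeR, white otherwise, with the list median as a black bar. Of the FGF-ERK readouts 11 of 12 were higher and of the adaptors 10 of 13 lower; the point of Fgf15, with no EGFP count, depends on the fit's prior count and shows direction alone.

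The genes whose pattern over the 6 libraries came closest to that of Fgf4 and of Fgfr2 were sought among the 8923 other genes that averaged 10 CPM or more, by the root mean square difference of log2 CPM centred on each gene's mean. For Fgf4 they were Gm38437 (0.512), Esrrb (0.545) and Sox2 (0.576). Sox2 encodes the partner of OCT-4 on DNA and Esrrb an orphan nuclear receptor of naive stem cells. For Fgfr2 they were Hsd11b2 (0.218), which encodes an enzyme that inactivates glucocorticoids, Nacad (0.247) and Agpat9 (0.263). The measure includes the difference between the lines, which 67.4% of tested genes show.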

How the data were processed

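RNA of 3 EWS-OCT-4 and 3 EGFP libraries was taken up in Trizol and 500 ng made into Lexogen Quant-Seq libraries, per the labels' protocols. Bowtie2, edgeR and the build mm10 are named, with no version or role, in the submitters' processing notes. The deposited values are raw counts of tags for each gene symbol, in whole numbers, with a file for each library. How tags were counted, with which annotation and whether by strand is not given in the sources used here. Lines that share a symbol were summed (35 symbols repeated, 23238 symbols in all).

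Line was tested against line with TMM scaling, filterByExpr (minimum count 10, minimum total 15) and robust quasi-likelihood F tests in edgeR 4.0.16, 2-sided, with Benjamini-Hochberg adjustment over all 13467 tested genes at 0.05. SE is the log2 fold change divided by the square root of F. One count stood for 0.0670 to 0.0911 CPM before TMM scaling. Shares and ratios within libraries were compared by exact permutation tests in scipy 1.17.1. Intervals and floors (3 counts) cover counting error only.

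The genes, the pathway lists and the markers were chosen with earlier results of these data known. Named from the lists were all called ligands and, of each other list, up to 4 called genes with the largest change, no overlap and a mean of at least 1 CPM. One gene that this rule names is not reported here. Frs3os, Macrod2 and Fgf3 were named after their values were seen. Alternatives were leaving out each library, libraries numbered 1 and 2 only, a replicate block, DESeq2 size factors, no filter, genes averaging 10 CPM or more, limma-voom (3.58.1), DESeq2 (1.42.0), a test against 1.5-fold and an adjusted p of 0.01, and, for receptor shares, Fgfrl1 in the denominator and counts summed over the libraries of a line.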

Additional observations from a re-analysis of the deposited data

How the results depend on the processing

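The directions of Fgf4, Fgfr2, Fgfr3, Fgfr4, Fgfrl1, Frs2, Fgfbp1 and Flrt3 and their side of the threshold were the same under every alternative in which they were tested, which for Fgfr3, Fgfr4 and Flrt3 leaves out that of genes averaging at least 10 CPM. Fgfr1 was not: its log2 fold change was 0.50 with limma-voom (adjusted p = 0.0528), and 0.55 against a 1.5-fold change (adjusted p = 0.454) and at an adjusted p of 0.01, all without a call. Leaving out 1 library each gave 0.36 to 0.77 for Fgfr1 and -1.26 to 1.197 for Frs3. The cause was not tested. With only genes of at least 10 CPM, 1 receptor partner and 7 FGF-ERK readouts were called, since fewer genes were tested, and no other ligand than Fgf4 was left. Over all genes the count ran from 6335 to 10240 and among the 10 genes from 6 (of 6 tested) to 9.

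Replicate 3 of each line differed most from the other 2 (chi-square per degree of freedom 25.3 to 34.6, against 4.01 and 4.31). With numbers 1 and 2 only, all 9 calls held, with Fgf4 at 9.35, Fgfr1 at 0.76 and Fgfbp1 at -7.03. These were the libraries closest to each other, and 10240 genes were called over all genes, against 9073 with every library. That setting was therefore little of a test of the calls, that of Fgfr1 included. Deviations of same-numbered libraries correlated at 0.04, 0.05 and 0.15 for numbers 1, 2 and 3. Number 1 of either line and number 2 of the other correlated at 0.08, above their own numbers, so the numbers were not taken as pairs. Number 3 of either line correlated at -0.09 to -0.10 with numbers 1 and 2 of the other. Deviations were taken from the mean of each line, so in sum these negative values follow from the 0.15 and add nothing to it. By the 0.15 alone, the libraries numbered 3 shared part of their deviation, and its source was not tested. With the replicate block 8968 genes and 9 of the 10 were called, with Fgfr1 at 0.51. Depth limits the low counts of Fgfr2 and Fgfbp1 in the EWS-OCT-4 line and of Fgf4 in the EGFP line.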

Other observations

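Frs3 was the only symbol in the files with no count in both libraries numbered 3 and at least 8 counts in each of the other 4 libraries. The same search gave 0 symbols for number 1 and 0 for number 2. The limit of 8 counts was set after the values of Frs3 were seen, as its lowest count in those 4 libraries.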
